A study of Mus musculus with 6 samples.

Results

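The antioxidant defence genes were followed in whole mouse adrenal glands, as 35 genes chosen by symbol: superoxide dismutases, catalase, the glutathione, thioredoxin and peroxiredoxin systems, enzymes that supply NADPH, and the regulator Nrf2 with its partner and targets. All 35 symbols were found among the 54532 genes of the count table, under 36 gene identifiers, because Nnt has 2. Bulk RNA sequencing was done on 3 samples labelled VEGF/LysM and 3 labelled WT. The question behind the comparison is how VEGF-A from macrophages bears on the adrenal. LysM is another name of Lyz2, a lysozyme gene of myeloid cells whose promoter is widely used to drive Cre recombinase. The labels do not describe the alleles, the strain, the age or the sex, and they do not say whether replicates came from separate animals, so a p value reflects only how far these libraries vary, possibly for technical reasons. In such bulk samples fewer cells of a type and less RNA per cell cannot be told apart.

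Steroid-making mitochondria leak electrons from their cytochrome P450 enzymes, and the resulting superoxide is turned into hydrogen peroxide by superoxide dismutases. Catalase, glutathione peroxidases and peroxiredoxins then remove the peroxide, the last of these through thioredoxin, and both glutathione and thioredoxin are kept reduced with NADPH. Nrf2, the product of Nfe2l2, is held back by Keap1 and, once released, switches on many of these genes through antioxidant response elements. NNT, which moves hydride from NADH to NADP at the inner mitochondrial membrane, matters for the adrenal in particular: its loss in humans causes familial glucocorticoid deficiency, and the mouse strain C57BL/6J carries a deletion of several Nnt exons.

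Library totals ran from 16476879 to 18671950 counts, and the 35 genes took 0.765% to 0.964% of each library. Markers of the labelled tissue were present: all 11 genes of a steroidogenic cortex list and all 9 of a chromaffin list were detected in every library. WT replicate 3 stood apart. The summed level of 19 hepatocyte markers, without Pck1, which fat also expresses, was 163 to 1043 CPM (counts scaled by the library total) in VEGF/LysM, against 390 and 265 CPM in WT replicates 1 and 2 and 76716 CPM in WT replicate 3. Cyp2e1 alone gave 128, 240 and 689 CPM of these sums in replicates 1, 2 and 3 of VEGF/LysM. In WT replicates 1, 2 and 3 it gave 342, 225 and 3877 CPM. All 19 markers had counts in WT replicate 3 and in VEGF/LysM replicate 3, while the fibrinogen genes Fga and Fgb were at 0 in the other 4 libraries. The summed cortex level was 48161 to 58521 CPM in VEGF/LysM, against 54211 and 49871 CPM in WT replicates 1 and 2 and 25071 CPM in WT replicate 3. In WT replicate 3 the chromaffin sum (3062 CPM) and the sum of 7 endothelial markers (484 CPM) were also the lowest of the 6, and that of 11 lymphocyte markers, at 73.0 to 138 CPM in VEGF/LysM and 287 and 158 CPM in WT replicates 1 and 2, was the highest (891 CPM). The sum of 10 kidney tubule markers was 35.2 CPM in WT replicate 3, against 1.25 and 1.40 CPM in WT replicates 1 and 2. In replicates 1, 2 and 3 of VEGF/LysM it was 0.904, 2.52 and 4.98 CPM. Results that rest on WT replicate 3 are therefore given also without it.

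The promoters shown here belong to 4 genes whose levels were higher in every VEGF/LysM library than in WT replicates 1 and 2 (Srxn1, Gclm, Txnrd1 and Nqo1, chosen after their values were seen), with that of Prdx1, whose groups overlapped with or without that library, for contrast. They are RefSeq windows of 300 bases on GRCm38.p6, from 250 bases before the annotated start to 50 after it, 5′ to 3′ on the gene's strand. Capitals mark the core letters of an antioxidant response element, TGACNNNGC or TGAGNNNGC, on either strand.
Srxn1 (chr2:152105274-152105573, plus strand): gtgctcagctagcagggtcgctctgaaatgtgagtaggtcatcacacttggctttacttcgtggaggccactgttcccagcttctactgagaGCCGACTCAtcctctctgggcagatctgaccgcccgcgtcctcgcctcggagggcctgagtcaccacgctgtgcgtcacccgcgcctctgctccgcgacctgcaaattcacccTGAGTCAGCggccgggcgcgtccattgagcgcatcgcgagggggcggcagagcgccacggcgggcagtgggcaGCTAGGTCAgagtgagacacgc
Gclm (chr3:122245307-122245606, plus strand): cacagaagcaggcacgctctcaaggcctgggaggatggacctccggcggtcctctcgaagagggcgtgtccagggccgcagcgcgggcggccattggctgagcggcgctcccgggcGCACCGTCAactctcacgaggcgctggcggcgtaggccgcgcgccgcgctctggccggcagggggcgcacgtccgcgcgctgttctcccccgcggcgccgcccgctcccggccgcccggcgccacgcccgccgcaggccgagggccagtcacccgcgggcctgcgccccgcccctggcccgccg
Txnrd1 (chr10:82858956-82859255, plus strand): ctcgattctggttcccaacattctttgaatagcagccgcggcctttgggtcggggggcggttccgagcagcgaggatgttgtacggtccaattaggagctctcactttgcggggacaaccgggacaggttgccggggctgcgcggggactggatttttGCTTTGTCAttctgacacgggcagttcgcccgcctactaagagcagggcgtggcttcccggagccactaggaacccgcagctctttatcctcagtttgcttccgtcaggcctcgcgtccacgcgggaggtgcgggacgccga
Nqo1 (chr8:107403156-107403455, minus strand): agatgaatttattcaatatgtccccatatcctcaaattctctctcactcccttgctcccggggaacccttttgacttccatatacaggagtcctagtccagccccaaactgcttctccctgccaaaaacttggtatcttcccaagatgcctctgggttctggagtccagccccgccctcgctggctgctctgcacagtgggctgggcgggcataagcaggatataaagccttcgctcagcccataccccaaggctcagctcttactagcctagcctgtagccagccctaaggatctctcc
Prdx1 (chr4:116685349-116685648, plus strand): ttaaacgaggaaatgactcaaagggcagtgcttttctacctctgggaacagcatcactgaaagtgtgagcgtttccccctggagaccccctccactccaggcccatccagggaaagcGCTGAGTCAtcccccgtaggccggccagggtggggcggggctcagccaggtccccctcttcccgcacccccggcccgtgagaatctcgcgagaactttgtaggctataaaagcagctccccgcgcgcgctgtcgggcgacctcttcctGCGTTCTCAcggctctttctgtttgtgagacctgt
The Srxn1 window held 3 matches, the Prdx1 window 2, and the Gclm and Txnrd1 windows 1 each. The Nqo1 window held none of these letters, and neither did the other 2 windows of Txnrd1. Windows were found for 28 of the 35 genes, and 10 of those 28 genes had a match; of their 41 windows 24.4% held one, against 27.8% of all 32851 windows in the table. A match is a run of letters and not a shown binding site.

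Nnt had the lowest level per length of the 35 genes in the mean of 6 libraries. The level per length is the count divided by the longest annotated protein-coding transcript, scaled to the same sum in every library, and it reads low where shorter transcripts dominate. On that scale Nnt averaged 1.08 units, with 0.518 to 2.22 over the 6 libraries. Other enzymes that supply NADPH were far above it: Idh2, the mitochondrial isocitrate dehydrogenase, averaged 180 units, G6pdx, the entry enzyme of the pentose phosphate pathway, 147 units, and Idh1, the cytosolic isocitrate dehydrogenase, 578 units. Nnt ranked 16311 among 54495 genes with a known length, while the next lowest member, Nqo1, a quinone reductase, averaged 5.92 units.

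**Figure D1:**
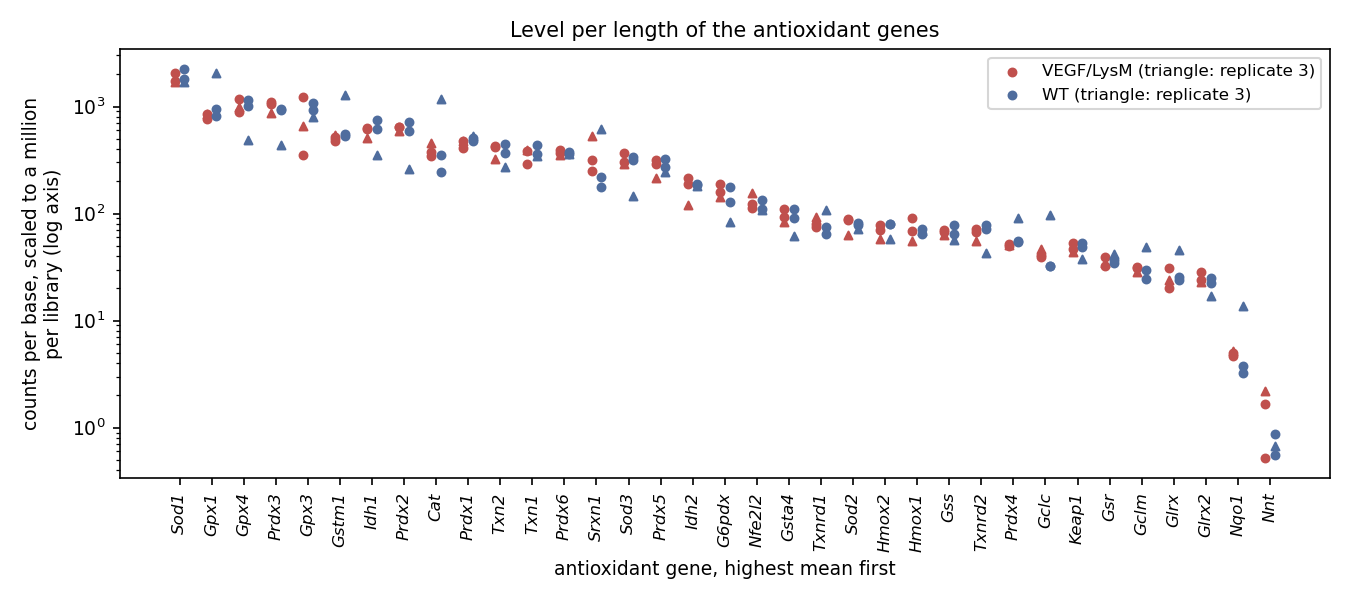
Level per length of the 35 antioxidant genes in each library (counts per base of the longest protein-coding transcript, scaled to the same sum per library, log axis), ordered by mean; VEGF/LysM is red and WT blue, with replicate 3 as a triangle. Means run from 1879 units for Sod1 to 1.08 units for Nnt.

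In counts, Nnt (ENSMUSG00000025453, chromosome 13, 119335448 to 119408997, minus strand, GRCm38) had 41, 15 and 56 in VEGF/LysM replicates 1, 2 and 3, against 15, 24 and 19 in WT replicates 1, 2 and 3. VEGF/LysM replicates 1 and 3 were thus the highest of the 6, VEGF/LysM replicate 2 had the lowest CPM, and the groups overlapped. As CPM of the library total with exact 95% Poisson intervals, which cover counting error only, Nnt stood at 2.47 (1.77 to 3.35) in VEGF/LysM replicate 1, at 0.803 (0.450 to 1.32) in VEGF/LysM replicate 2 and at 3.40 (2.57 to 4.41) in VEGF/LysM replicate 3. It stood at 0.891 (0.499 to 1.47), 1.30 (0.830 to 1.93) and 1.10 (0.660 to 1.71) CPM in WT replicates 1, 2 and 3. The interval of VEGF/LysM replicate 3 lay above those of VEGF/LysM replicate 2 and of all 3 WT libraries, and the interval of VEGF/LysM replicate 1 lay above those of VEGF/LysM replicate 2, WT replicate 1 and WT replicate 3. The intervals of the 3 WT libraries overlapped.

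**Figure D2:**
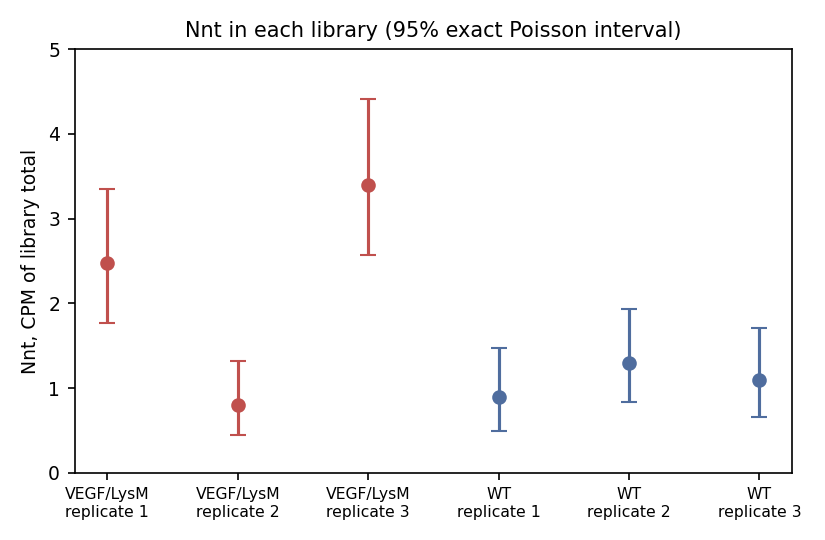
Nnt in each library as CPM of the library total, with exact 95% Poisson intervals that cover counting error only; VEGF/LysM libraries are red and WT libraries blue. VEGF/LysM replicates 1 and 3 sit at 2.47 and 3.40 CPM, and the other 4 libraries lie between 0.803 and 1.30 CPM.

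After TMM scaling Nnt averaged 2.16 ± 1.27 CPM in VEGF/LysM and 1.17 ± 0.285 CPM in WT (SD, n = 3 each). Its log2 fold change was 0.89 ± 0.55 (SE, 95% interval -0.42 to 2.19), and it did not pass edgeR's quasi-likelihood test (adjusted p = 0.999). The estimate was 0.45 without VEGF/LysM replicate 3, 1.03 without WT replicate 3 and 1.27 without VEGF/LysM replicate 2. Between its lowest and highest library Nnt spanned 4.18-fold. With 0.1 CPM added to both values its log2 span was 1.93, at least as wide as that of 87.2% of all genes tested. The median log2 span of all genes, taken in the same way, was 0.817 (1.76-fold). The share of that span that counting alone gives was not tested.

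The second Nnt identifier, ENSMUSG00000116207, lies in the same place on the same strand (119335528 to 119408952) and had 0 counts in all 6 libraries. Its single transcript, Nnt-206, has 17 exons and 3339 bases, and all of its 3309 distinct runs of 31 bases also occur in transcripts of the first identifier, among them Nnt-202, with 17 exons and 3464 bases. Reads from Nnt-206 can therefore not be told apart by sequence from reads of the first identifier, and the count of 0 sets no upper limit on its level. The reference assembly is itself that of C57BL/6J, so exons which that strain lacks are not in these transcripts, and a single count per gene does not show which exons were read.

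No antioxidant gene was shown to differ between VEGF/LysM and WT glands. Across all genes, edgeR called 0 of 16300 (0%) at an adjusted p of 0.05, and 0 of the 35 antioxidant genes, all of which passed the filter on low counts. Of all genes 459 had an unadjusted p under 0.05, 2.82% (0.871% higher and 1.94% lower in VEGF/LysM), and none of the 35 did. DESeq2 and limma-voom likewise called 0 genes at an adjusted p of 0.05. In these tests of all libraries, only Gpx1 and Gstm1 of the 35 had an unadjusted p under 0.05, both in DESeq2. The share of all genes at that p in DESeq2 is not set out here, so this is not read as an excess. The median log2 fold change of the 35 was -0.19, with 8 above 0, against a median of 0.001 over all genes tested, of which 50.3% were above 0. Without WT replicate 3 the median of the 35 was -0.07 and 14 of the 35 were above 0 (51.5% of all genes). By role, the genes above 0 with all libraries were 1 of 3 superoxide dismutases, 1 of 4 among catalase and the glutathione peroxidases, 1 of 6 in glutathione synthesis, recycling and glutaredoxins, 1 of 2 glutathione transferases, 0 of 4 in the thioredoxin system, 2 of 7 peroxiredoxins and sulfiredoxin, 2 of 4 NADPH suppliers and 0 of 5 in the Nrf2 and haem group. The direction of 14 of the 35 turned when that library was left out. In that comparison edgeR called 1 gene of all tested (0.006%), not one of the 35, and 2 of the 35 had an unadjusted p under 0.05, against 2.09% of all genes.

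**Figure D3:**
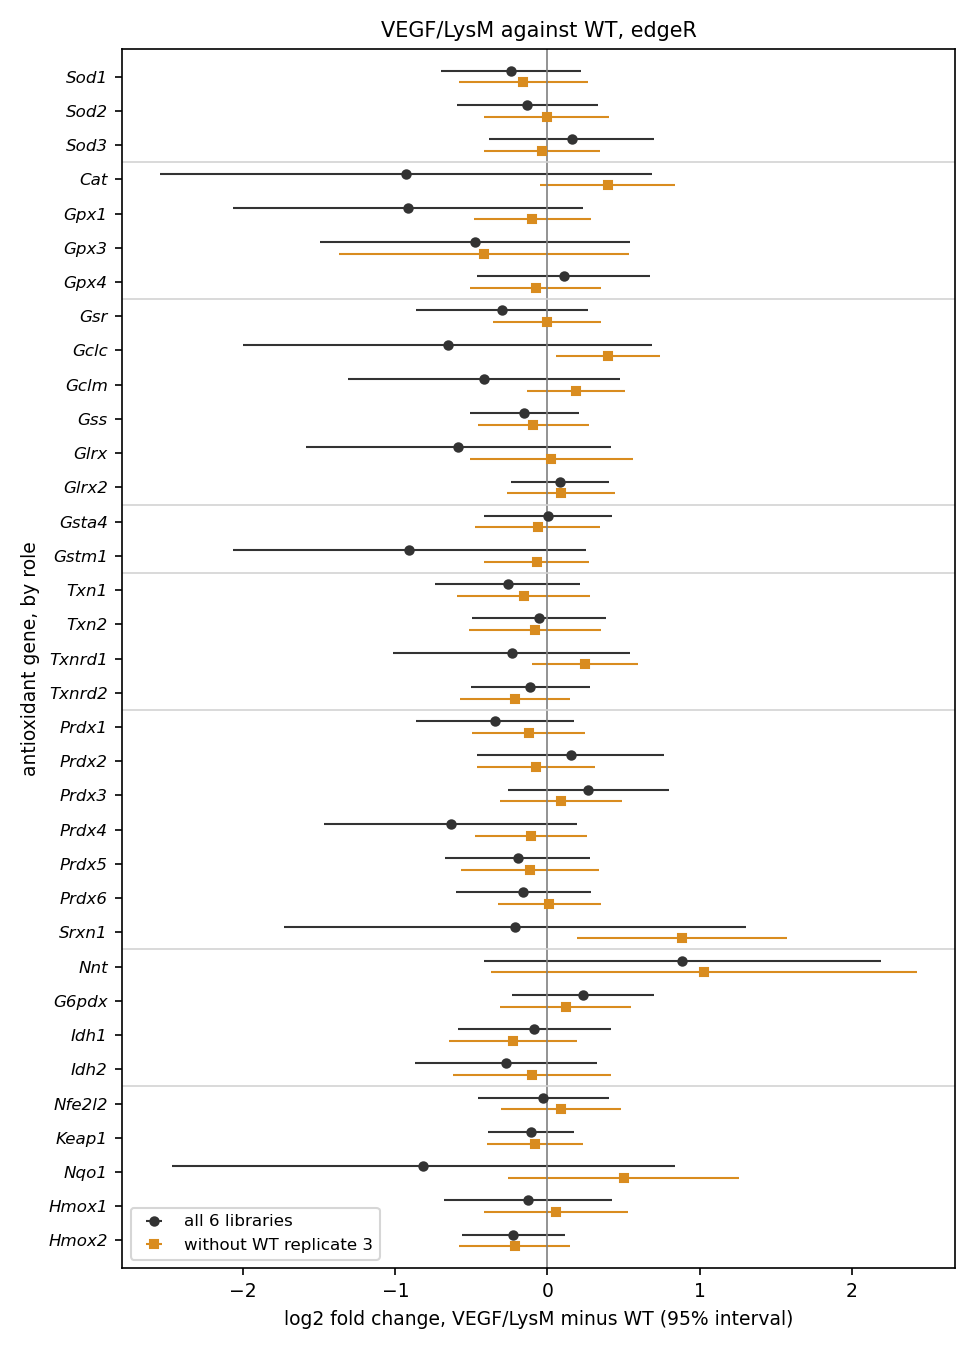
Log2 fold change of each antioxidant gene, VEGF/LysM minus WT, with its 95% interval from edgeR, in all 6 libraries (black circles) and without WT replicate 3 (orange squares); grey lines part the roles. With all libraries every interval includes 0, and without WT replicate 3 those of Gclc (0.06 to 0.74) and Srxn1 (0.19 to 1.58) do not.

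Among the superoxide dismutases, Sod1, the cytosolic enzyme, had the highest level per length of all 35 genes, with a mean of 1879 units (1704 to 2254 over the 6 libraries). After TMM scaling Sod1 stood at 469, 575 and 469 CPM in replicates 1, 2 and 3 of VEGF/LysM, against 644, 480 and 664 CPM in WT replicates 1, 2 and 3. The groups overlapped, and Sod1 had a log2 fold change of -0.24 ± 0.19 (SE). Sod2, the mitochondrial manganese enzyme, had -0.13 ± 0.19, and Sod3, the secreted enzyme, 0.16 ± 0.23, which became -0.03 without WT replicate 3. None of the 3 genes passed the test (adjusted p = 0.999 for each in edgeR).

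WT replicate 3 held the highest of the 6 levels for 20 of the 35 genes (57.1%), against 28.4% of all genes tested, and the lowest for 6 (17.1%), against 29.7%. Its level was over 2 times the mean of WT replicates 1 and 2 for 10 genes. Cat, catalase, stood at 380, 436 and 506 CPM in replicates 1, 2 and 3 of VEGF/LysM, against 285, 382 and 1850 CPM in WT replicates 1, 2 and 3. Gpx1, the abundant cytosolic and mitochondrial glutathione peroxidase, stood at 341, 400 and 394 CPM in VEGF/LysM, against 454, 356 and 1331 CPM in WT. In both genes WT replicate 3 was far above the other 5 libraries, whose VEGF/LysM and WT values overlapped. Gstm1, a glutathione transferase with close relatives in its gene cluster between which reads may be split, stood at 259, 292 and 301 CPM in VEGF/LysM, against 316, 279 and 1003 CPM in WT. Its pattern was that of Gpx1.

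The log2 fold changes of these 3 genes, -0.93 ± 0.68 for Cat, -0.92 ± 0.49 for Gpx1 and -0.91 ± 0.49 for Gstm1 (SE), did not pass the test (adjusted p = 0.999 for each in edgeR). Without WT replicate 3 they were 0.40 ± 0.20, -0.10 ± 0.17 and -0.07 ± 0.15. Liver is rich in all 3 transcripts, and the hepatocyte marker sum given above was at its highest in the same library. Its part in these values was not tested beyond leaving the library out and a fit with a hepatocyte covariate. In that fit Cat had a log2 fold change of 0.003, and Gpx1 and Gstm1 were not among the genes whose direction turned.

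The genes that were lowest in WT replicate 3 after TMM scaling were Sod3, Gpx4, Prdx2, Prdx3, G6pdx and Idh1. Gpx4, the peroxidase of lipid peroxides in membranes, stood at 370, 514 and 421 CPM in VEGF/LysM, against 505, 411 and 296 CPM in WT. Prdx3, the peroxiredoxin of the mitochondrial matrix, was the highest of its family per length, with a mean of 890 units. It stood at 647, 720 and 546 CPM in VEGF/LysM, against 626, 568 and 394 CPM in WT. Its log2 fold change was 0.27 ± 0.22 and became 0.09 without WT replicate 3. The summed cortex, chromaffin and endothelial markers were lowest and the lymphocyte markers highest in that library too, as given above, and their part was not tested.

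**Figure D4:**
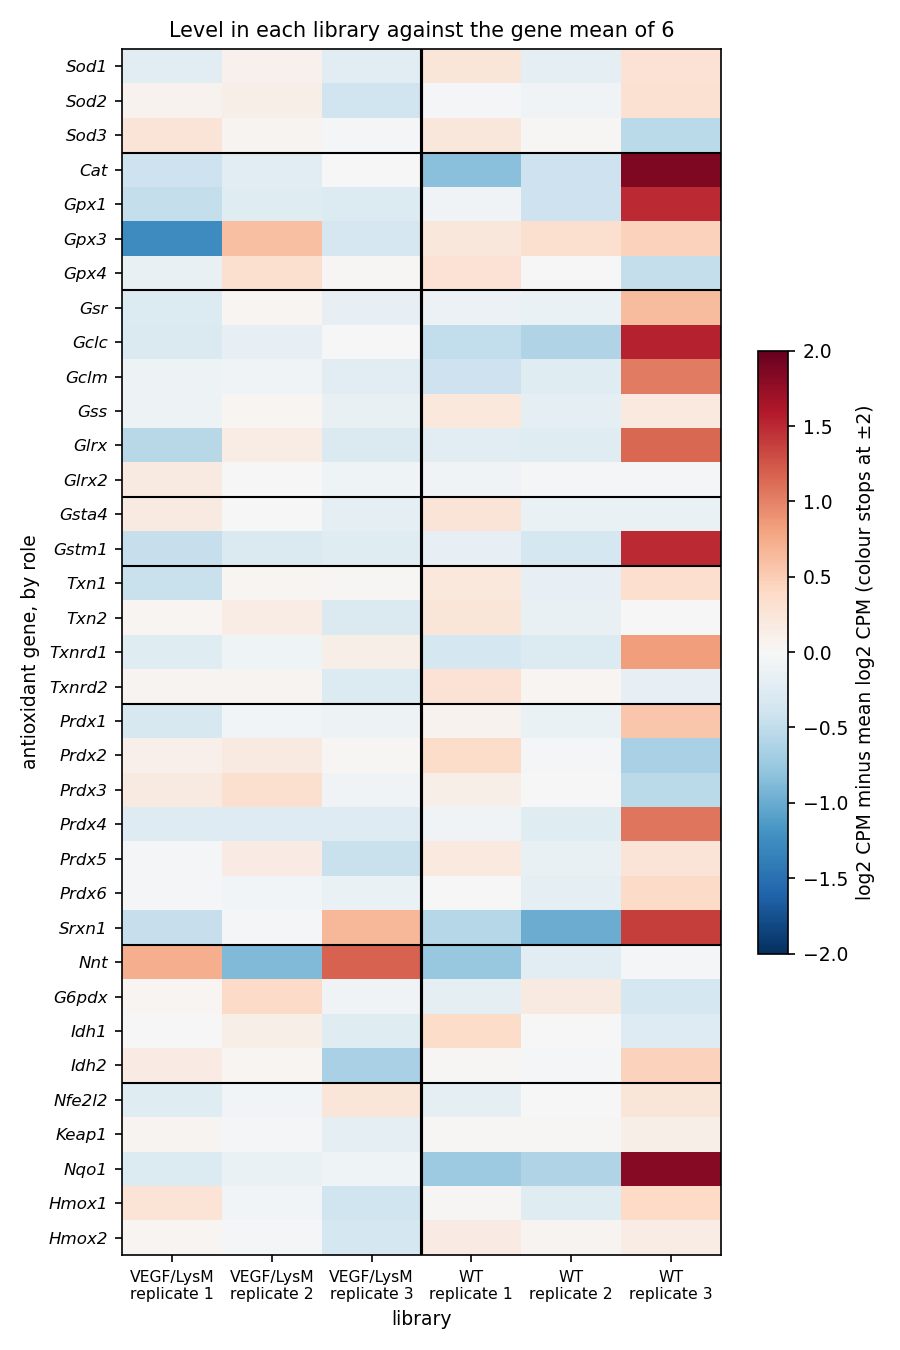
Log2 TMM-scaled CPM of each antioxidant gene in each library minus the gene's mean over the 6 libraries, with roles parted by lines; red is above and blue below the mean. WT replicate 3 is the highest library for 20 of the 35 genes, VEGF/LysM replicate 1 is low for Gpx3, and VEGF/LysM replicates 1 and 3 are high for Nnt.

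Gpx3, the secreted plasma glutathione peroxidase, varied within VEGF/LysM rather than through WT replicate 3. It stood at 236, 857 and 449 CPM in replicates 1, 2 and 3 of VEGF/LysM, against 662, 706 and 777 CPM in WT replicates 1, 2 and 3. VEGF/LysM held both the lowest and the highest of the 6 values, and the WT libraries lay close together. The log2 fold change was -0.48 ± 0.43 (SE, adjusted p = 0.999 in edgeR), with -0.15 without VEGF/LysM replicate 1 and -1.08 without VEGF/LysM replicate 2. The summed level of 8 adipocyte markers, without Pck1, all detected in every library, was 1703, 4426 and 4006 CPM in replicates 1, 2 and 3 of VEGF/LysM, against 4262, 4117 and 2240 CPM in WT. That sum, scaled by library total, was thus low in both VEGF/LysM replicate 1 and WT replicate 3. On that scale Gpx3 stood at 243, 873 and 463 CPM in replicates 1, 2 and 3 of VEGF/LysM. In WT replicates 1, 2 and 3 it stood at 691, 740 and 604 CPM. Fat expresses Gpx3, and the part of adipocyte transcripts in its level was not tested.

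Glutathione is made in 2 steps, by glutamate-cysteine ligase (Gclc, its catalytic subunit, and Gclm, its modifier) and by glutathione synthetase (Gss), and it is recycled by glutathione reductase (Gsr). Gclc stood at 56.6, 62.1 and 69.2 CPM in replicates 1, 2 and 3 of VEGF/LysM, against 49.1, 45.7 and 202 CPM in WT replicates 1, 2 and 3. Gclm stood at 74.6, 76.1 and 68.7 CPM in VEGF/LysM, against 60.4, 67.7 and 165 CPM in WT. For both subunits every VEGF/LysM value lay above WT replicates 1 and 2 and below WT replicate 3. Gss, the highest of this group per length, stood at 55.2, 60.4 and 53.1 CPM in VEGF/LysM, against 68.0, 51.8 and 67.7 CPM in WT, and overlapped. The log2 fold change of Gclc was -0.66 ± 0.57 in all libraries and 0.40 ± 0.15 (SE) without WT replicate 3.

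Gsr had a log2 fold change of -0.30 ± 0.24, with 36.6 to 45.7 CPM in VEGF/LysM and 40.5 to 68.8 CPM in WT. The glutaredoxins, which undo mixed disulphides of glutathione, differed in how steady they were. Glrx, the cytosolic one, stood at 11.4, 18.5 and 13.8 CPM in VEGF/LysM, against 14.4, 14.1 and 37.3 CPM in WT, while Glrx2, the mitochondrial one, spanned 1.20-fold over the 6 libraries, the narrowest span of the 35 genes. The log2 fold change of Glrx was -0.59 ± 0.42 and became 0.03 without WT replicate 3, and that of Glrx2 was 0.08 ± 0.14 (SE). Gsta4, a transferase that clears the lipid peroxidation product hydroxynonenal, had a log2 fold change of 0.003 ± 0.18, whose sign turned with DESeq2 size factors (-0.006).

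Sulfiredoxin, Srxn1, which restores overoxidised peroxiredoxins, had the widest span of its group. It stood at 295, 395 and 639 CPM in replicates 1, 2 and 3 of VEGF/LysM, against 274, 204 and 1062 CPM in WT replicates 1, 2 and 3. The highest library was WT replicate 3 and the next VEGF/LysM replicate 3, which also held the next highest hepatocyte marker sum, 1043 CPM. The log2 fold change of Srxn1 was -0.21 ± 0.64 (SE) in all 6 libraries. It was 0.88 ± 0.30 without WT replicate 3 (edgeR, unadjusted p = 0.0177, adjusted p = 0.99996), 0.53 without both replicates 3, and 0.50 with a hepatocyte covariate. The direction of Srxn1 thus turned when WT replicate 3 was left out.

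Without WT replicate 3, the groups did not overlap for 7 of the 35 genes (20.0%), against 14.4% of all genes in that 3 against 2 comparison. Higher in all VEGF/LysM libraries were Srxn1, Gclc, Gclm, Nqo1 and Txnrd1, and lower were Prdx4 and Hmox2. Nqo1, with few counts, stood at 3.05, 3.36 and 3.47 CPM in VEGF/LysM, against 2.22, 2.42 and 12.9 CPM in WT. Txnrd1, the cytosolic thioredoxin reductase, stood at 113, 126 and 144 CPM in VEGF/LysM, against 104, 110 and 237 CPM in WT. In both genes the VEGF/LysM values lay between the lower pair of WT libraries and WT replicate 3. With all libraries the log2 fold changes were -0.82 ± 0.70 for Nqo1, -0.24 ± 0.33 for Txnrd1 and -0.42 ± 0.38 for Gclm (SE). Without WT replicate 3 they were 0.50 ± 0.34 for Nqo1, 0.25 ± 0.15 for Txnrd1 and 0.19 ± 0.14 for Gclm (SE), and none passed (adjusted p = 0.99996 for each in edgeR).

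Among genes whose groups still overlapped without WT replicate 3, Cat had a log2 fold change of 0.40, as large as that of Gclc, and Idh1 -0.23, while Hmox1 had 0.06, Gsr -0.003, Prdx1 -0.12, Txn1 -0.16 and G6pdx 0.12. Nfe2l2, which encodes Nrf2, was the highest of its group per length and stood at 117, 133 and 164 CPM in VEGF/LysM, against 122, 137 and 163 CPM in WT. The groups overlapped throughout, and its log2 fold change was -0.03 ± 0.18 (SE). Keap1, its inhibitor, had -0.11 ± 0.12 with a span of 1.22-fold. Both regulators act largely through protein stability, which transcript levels do not measure.

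**Figure D5:**
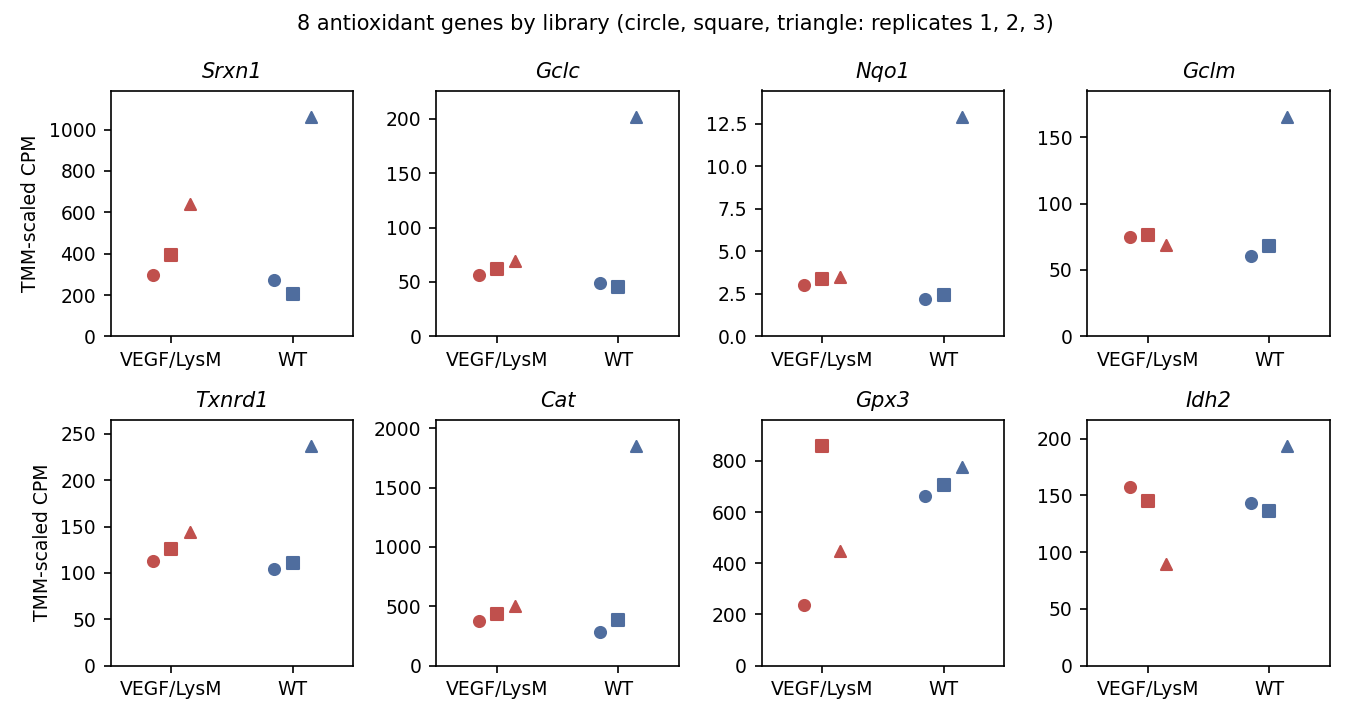
TMM-scaled CPM of 8 antioxidant genes in each library, VEGF/LysM in red and WT in blue, with replicates 1, 2 and 3 as circles, squares and triangles; each axis starts at 0. WT replicate 3 is highest for all genes shown but Gpx3, and for Srxn1, Gclc, Nqo1, Gclm and Txnrd1 the VEGF/LysM values lie above WT replicates 1 and 2.

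With all 6 libraries the groups did not overlap for 2 of the 35 genes (5.71%), both lower in VEGF/LysM, against 5.95% of all genes tested (3.54% higher and 2.41% lower). Prdx4, the peroxiredoxin of the endoplasmic reticulum, stood at 21.5, 21.6 and 21.7 CPM in VEGF/LysM, against 24.5, 21.8 and 54.4 CPM in WT. Hmox2, the constitutive haem oxygenase, stood at 56.5, 53.2 and 43.1 CPM in VEGF/LysM, against 61.1, 56.7 and 60.4 CPM in WT. In each gene the nearest VEGF/LysM and WT values all but touched. The log2 fold changes were -0.64 ± 0.35 for Prdx4 and -0.22 ± 0.14 for Hmox2 (SE), and without WT replicate 3 they were -0.11 and -0.21. Hmox1, the inducible haem oxygenase, overlapped between groups, with 37.1 to 59.2 CPM in VEGF/LysM and 41.5 to 64.9 CPM in WT and a log2 fold change of -0.13 ± 0.23 (SE).

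The remaining peroxiredoxins overlapped between groups. Prdx1, the main cytosolic one, stood at 398, 481 and 466 CPM in VEGF/LysM, against 521, 453 and 732 CPM in WT, with overlapping groups and a log2 fold change of -0.34 ± 0.22 (SE). Prdx2, abundant in red cells, had 0.15 ± 0.26, Prdx5, found in mitochondria and peroxisomes, -0.19 ± 0.20, and Prdx6, which also has phospholipase activity, -0.16 ± 0.19. The thioredoxin genes overlapped between groups as well. Txn1, cytosolic thioredoxin, had a log2 fold change of -0.26 ± 0.20, and Txnrd2, the mitochondrial thioredoxin reductase, -0.11 ± 0.16. Txn2, its mitochondrial counterpart and the highest of the group per length, stood at 356, 383 and 283 CPM in VEGF/LysM, against 408, 311 and 341 CPM in WT, with a log2 fold change of -0.05 ± 0.19.

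After TMM scaling VEGF/LysM replicate 3 held the lowest level for 11 of the 35 genes (31.4%), against 15.9% of all genes tested. VEGF/LysM replicate 1 held it for 9 of the 35, against 14.7% of all genes. The 11 of VEGF/LysM replicate 3, named after their values were seen, were Sod1, Sod2, Glrx2, Gsta4, Txn2, Txnrd2, Prdx5, Idh2, Keap1, Hmox1 and Hmox2. Scaled by library total, only Sod2, Prdx5, Idh2, Hmox1 and Hmox2 of these were lowest in that library. Idh2 stood at 158, 145 and 89.2 CPM in replicates 1, 2 and 3 of VEGF/LysM, against 143, 136 and 193 CPM in WT. Sod2 stood at 218, 225 and 159 CPM in VEGF/LysM, against 204, 198 and 258 CPM in WT. In both genes the other 5 libraries lay well above VEGF/LysM replicate 3. The ratio of VEGF/LysM replicate 3 to the mean of VEGF/LysM replicates 1 and 2 was 0.590 for Idh2, 0.699 for Hmox1, 0.704 for Prdx5, 0.716 for Sod2, 0.768 for Txn2, 0.787 for Hmox2, 0.802 for Txnrd2, 0.820 for Gsta4, 0.880 for Glrx2 and Keap1 and 0.898 for Sod1. Over all 35 genes it ran up to 2.06, for Nnt. The summed chromaffin markers were highest in that library, at 9897 CPM, against 6033 and 6169 CPM in replicates 1 and 2 of VEGF/LysM and 3062 to 7440 CPM in WT, and their part was not tested.

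Of the NADPH suppliers, Idh1 was the highest per length and stood at 595, 637 and 500.5 CPM in VEGF/LysM, against 759, 589 and 492 CPM in WT. G6pdx stood at 176, 223 and 163 CPM in VEGF/LysM, against 150.2, 193 and 134 CPM in WT. Both overlapped between groups, with log2 fold changes of -0.09 ± 0.21 for Idh1, 0.23 ± 0.20 for G6pdx and -0.27 ± 0.25 for Idh2 (SE; adjusted p = 0.999 for each in edgeR).

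Median spans are given with 0.1 CPM added to each value, and spans of single genes without it. Across the 6 libraries the 35 genes spanned a median of 1.75-fold, against 1.76-fold over all genes tested, and 21 of them stayed within 2-fold. Without WT replicate 3 the median span was 1.40-fold, against 1.499-fold over all genes, and 32 stayed within 2-fold. The 3 that did not were Nnt, Gpx3 and Srxn1, with spans of 4.18-fold, 3.63-fold and 3.12-fold.

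A wider set of 114 genes of the same pathways gave a like picture: 106 were tested, and none passed in either direction in edgeR, with 2 at an unadjusted p under 0.05. The groups did not overlap for 3 of the 106, Aldh1l2 (higher in VEGF/LysM), Blvrb and Tfam, a mitochondrial transcription factor named after its values were seen (both lower), against 5.95% of all genes tested. The 2 with the smallest p, Cbs and Cth, make cysteine from homocysteine. Cbs stood at 1.29, 1.74 and 3.59 CPM in VEGF/LysM, against 1.31, 1.03 and 416 CPM in WT, and Cth at 15.1, 18.8 and 24.2 CPM in VEGF/LysM, against 22.6, 21.4 and 256 CPM in WT. In both genes WT replicate 3 stood alone above the other libraries. Of the wider glutathione peroxidases and transferases, 5 of 20 were above 0, with Gstt1 at a log2 fold change of -1.76 and Gstm7 at -0.46. Of the glutathione synthesis and transport genes 5 of 17 were above 0, and of the thioredoxin-fold and repair genes 6 of 23, with Msrb1, a methionine sulphoxide reductase, at -1.19 and Msra, another, at -1.12.

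Of the wider NADPH sources, 6 of 13 were above 0. Aldh1l2, a mitochondrial folate enzyme that makes NADPH, stood at 1.82, 1.79 and 1.35 CPM in VEGF/LysM, against 1.08, 0.979 and 1.04 CPM in WT. Its log2 fold change was 0.68 ± 0.32 (SE, adjusted p = 0.999 in edgeR), and Aldh1l1, its cytosolic relative, had -1.34. Of the Nrf2 regulators and targets 13 of 21 were above 0, with Blvrb, a biliverdin reductase, at -0.62 and Akr1b8, an aldo-keto reductase, at 0.25. Of the oxidant sources 4 of 12 were above 0, with Maob, a monoamine oxidase, at -1.42 and Cyba, a subunit of NADPH oxidase, at -0.27. Without WT replicate 3, Cbs had a log2 fold change of 0.91, Cth -0.19, Gstt1 -0.20, Msrb1 -0.26, Msra -0.07, Aldh1l1 -0.13 and Maob -0.21. The wider genes with an unadjusted p under 0.05 in edgeR were then Nox4 (0.98), Bach1 (0.72) and Xdh (0.42). All were higher in VEGF/LysM, and 2.09% of all genes had such a p. None passed (adjusted p = 0.99996 for each in edgeR).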

How the data were processed

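The tools named in the submitters' processing notes are kallisto and DESeq2 1.36.0, and the build is mm10, without a stated role. The deposited values are raw counts for each gene, whole numbers in every cell. How they were made whole, which kallisto version ran and on which annotation is not stated. Per the labels' protocols, libraries followed Smart-seq2, which does not mark strand, so reads of overlapping genes cannot be told apart. Columns were matched to samples by title, and identifiers to symbols by a gene name table (54409 of 54532 matched).

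Genes were kept by filterByExpr (minimum count 10, minimum total 15; 16300 genes), scaled by TMM (factors 1.02 to 1.05, and 0.840 in WT replicate 3) and tested with edgeR 4.0.16 under R 4.3.3 by the quasi-likelihood test with group as the only term. Benjamini-Hochberg adjustment ran over all genes tested, and calls needed an adjusted p under 0.05. SE and 95% intervals come from that fit. An exact permutation of 3 against 3 cannot go below p = 0.1, so no single value was tested alone. DESeq2 1.42.0 and limma-voom (limma 3.58.1) were alternatives. The edgeR steps were also run on simulated counts that varied less between samples than these and held no outlying library. That run does not show how the steps perform on these data. No library pair was identical. Coordinates are GENCODE M21 on GRCm38, the assembly mm10 names.

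The genes, lists and tests were chosen with earlier results of these data known. Values in every library are given for Nnt, genes whose groups do not overlap, the 8 smallest p, the 8 widest spans and the highest per length in each role; those of Gpx4, Gclm, Txnrd1, G6pdx, Idh2 and Sod2 were added after the values were seen. Wider genes named are the 2 of smallest p per list, with Tfam, Nox4, Bach1 and Xdh added after the values were seen.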

Additional observations from a re-analysis of the deposited data

How the results depend on the processing

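Of 525 fits of the 35 genes under 15 alternatives, 469 kept their direction, 56 turned and 0 were called, with a lowest adjusted p of 0.656. The counts of antioxidant and of wider genes called were 0 under all 15, while at an unadjusted p under 0.05 they were 0 to 3 and 0 to 14. The share of all genes at that p in edgeR was 2.82% with all libraries and 2.09% without WT replicate 3. It is not set out here for every setting, and these ranges are not read as an excess. The count over all genes was 0 to 1 with libraries left out. Scaling by library size only left 1 of the 35 genes whose groups do not overlap, and the share of all genes there is not given. With libraries left out there were 3 to 11. There were 7 without WT replicate 3. The share of all genes was then 10.8% to 28.4%, since fewer samples overlap less, and it was 14.4% without WT replicate 3. That range takes in the fit without both replicates 3, so the lowest and the highest count cannot be judged against it. The median of -0.19 was -0.27 to 0.0406 with libraries left out, 0.0406 being without both replicates 3.

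Log2 fold changes that turned were Gsta4 -0.00565 with DESeq2 size factors, Gsta4 -0.00589 in DESeq2, Txn2 0.0125 and Nfe2l2 0.0598 with scaling by library size only, Srxn1 0.0816 in limma-voom, and Cat 0.00301, Gclc 0.0646, Gsta4 -0.0485, Txnrd1 0.0656, Srxn1 0.50, Nfe2l2 0.0502 and Nqo1 0.0987 with a hepatocyte covariate. The cause was not tested. With libraries left out, the ranges of genes that turned were Glrx2 -0.0120 to 0.16, Gsta4 -0.11 to 0.15, Nfe2l2 -0.17 to 0.0870, Gpx4 -0.0767 to 0.30, Sod2 -0.24 to 0.15, Txn2 -0.16 to 0.0646, Idh1 -0.23 to 0.0981, Hmox1 -0.33 to 0.22, Txnrd2 -0.22 to 0.0119, Sod3 -0.0341 to 0.33, Cat -1.33 to 0.40. They were also Gclc -0.996 to 0.40, Gclm -0.67 to 0.24, Glrx -0.82 to 0.0758, Txnrd1 -0.44 to 0.25, Prdx2 -0.0761 to 0.41, Prdx6 -0.27 to 0.0570, Srxn1 -0.59 to 0.88, Nqo1 -1.20 to 0.50, Gsr -0.43 to 0.0242, Prdx5 -0.35 to 0.0424, Idh2 -0.45 to 0.12.

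Deviations of samples of the same number had correlations of 0.065, -0.013 and 0.25 for replicates 1, 2 and 3, and the numbers were not taken as pairs. With a replicate block 270 genes had an unadjusted p under 0.05 (459 without it), 0 were called, the median of the 35 was -0.14 and Srxn1 had 0.11. VEGF/LysM replicate 3 alone correlated best with its own number, at 0.25, against -0.16 and -0.25 with WT replicates 1 and 2. The groups that do not overlap were not recounted under the other filters, tests, block or covariate. At a common biological variation of 0.365 and 3 samples a group, small differences were not detectable, and Nnt and Nqo1 rest on few counts.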
